A study of Mus musculus with 2 samples.

Results

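The enzymes of the tricarboxylic acid (TCA) cycle, of pyruvate entry into it, of glutamine and amino acid nitrogen exchange and of serine and one-carbon metabolism were described in mouse CD8+ T cells grown with bezafibrate. The set held 37 genes, chosen by name from these pathways, out of 22180 genes read by a probe set that named a single gene. All 37 had a value, each of them above the floor, which was the median signal of all named genes on the array where the gene was brighter. They formed 4 branches. The TCA cycle branch, which includes related enzymes outside the cycle, held 19 genes and pyruvate oxidation 7. Glutamine and transamination held 4, and serine and one-carbon metabolism 7.

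Expression was measured on 2 Affymetrix arrays of total RNA, 1 from cells grown with bezafibrate and 1 from cells grown with dimethyl sulfoxide (DMSO), its solvent. For both, naive CD8+ T cells had been activated with beads carrying antibodies to CD3 and CD28, with recombinant human interleukin-2 at 100 U/mL. Bezafibrate is a fibrate drug and an agonist of PPARs, the peroxisome proliferator-activated receptors. It was kept at 30 µM for the whole culture, and cells were expanded to day 13. The comparison asks which genes differ with the drug. The labels state neither the strain, age and sex of the mice nor whether animals were pooled. Each group had a single array and so no replicate spread, no p-value could be computed, and each difference is one between 2 arrays. Because the RNA came from bulk cultures, fewer cells of a type and less RNA per cell cannot be told apart.

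The TCA cycle oxidises acetyl-CoA in mitochondria to carbon dioxide and passes electrons to the respiratory chain. Pyruvate enters through the pyruvate dehydrogenase complex, which is switched off by its kinases and on by its phosphatases. Glutamine carbon enters as glutamate and then 2-oxoglutarate. Serine feeds folate-bound carbon units into nucleotide synthesis. Activated T cells draw on all of these routes as they grow and divide. PPARs are nuclear receptors best known for controlling fatty acid oxidation.

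Of the 8 CD8 T cell markers with a value (Cd3d, Cd3e, Cd3g, Cd8a, Cd8b1, Cd28, Cd2 and Thy1), 8 lay above background on both arrays. Their signals ran from 7.89 to 11.05 with bezafibrate and from 7.74 to 11.10 with DMSO. Background was the 95th percentile of 1394 olfactory and vomeronasal receptor genes, a log2 signal of 4.68 on the bezafibrate array and 4.71 on the DMSO array. Taking each gene's brighter array, of 4 B cell markers only Cd79b was above it, of 3 natural killer cell markers only Fcer1g, of 4 macrophage markers only Csf1r and of 4 dendritic cell markers only Cd209a. Cd4 and the 3 neutrophil markers were within it. The summed marker signal (log2) was 13.18 with bezafibrate and 13.32 with DMSO for CD8 T cells. It was 6.19 and 6.43 for B cells, 6.29 and 6.94 for natural killer cells, 5.83 and 5.78 for macrophages, 8.74 and 9.15 for dendritic cells, and 4.93 and 5.24 for neutrophils, with bezafibrate first in each pair. Over the 3 natural killer cell markers the median difference (bezafibrate minus DMSO) was 0. Fcer1g, at 5.64 with bezafibrate and 6.57 with DMSO, was the brightest of them. The part of all these cell types in the results was not tested.

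Across the 37 genes, 21 were lower with bezafibrate (56.8%), 15 were higher and 1 was equal, with a median log2 ratio of −0.05. A log2 ratio is the bezafibrate signal minus the DMSO signal. The corresponding shares of all 11446 genes above the floor were 49.6% and 48.4%, around a median of 0. The differences were small. At a limit of 1.2-fold, Suclg1 and Gpt2 were lower and 0 genes were higher. That is 5.41% of the set lower, against 10.4% of all genes above the floor, and 0 higher against 9.58%. At 1.3-fold 1 gene, Gpt2, was lower and 0 higher, against 3.76% and 3.46% of all genes. At 1.5-fold 0 were lower or higher, against 0.524% and 0.664%. Gpt2 passed the floor through the DMSO array alone and was within background with bezafibrate. Its difference has only a bound, at least 1.26-fold, which does not reach 1.3-fold. The ratios of the 37 genes ran from −0.42 to 0.23, and the central 95% of all genes above the floor ran from −0.42 to 0.41.

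The branches are given beside all genes above the floor, of which 49.6% were lower and 48.4% higher. In the TCA cycle branch 14 of 19 genes were lower and 5 higher (median −0.15). This branch counts Idh1 and Mdh1, which are cytosolic, and the NADP-dependent Idh2 of mitochondria, with ratios of −0.25, −0.19 and −0.22. The 14 also include Dld, with a ratio of −0.000116 that changed sign under other processing. In the pyruvate branch 2 of 7 were lower, 4 higher and Pdp1 equal, with a median of 0.09. In the glutamine branch 3 of 4 were lower, with a median of −0.15, and in the serine and one-carbon branch 5 of 7 were higher and 2 lower, around a median of 0.04. The shares higher were 57.1% in the pyruvate branch and 71.4% in the serine and one-carbon branch, on 7 genes each. The pyruvate median was 0 with the mean of all probe sets of a gene. Signals of different probe sets do not measure relative RNA amounts, so the levels of the branches are given without an order. TCA cycle genes had signals from 5.33 to 10.01 with bezafibrate and from 5.59 to 10.05 with DMSO. Pyruvate genes had signals from 5.03 to 8.09 with bezafibrate and from 5.07 to 8.19 with DMSO. Glutamine genes ran from 4.59 to 10.68 with bezafibrate and from 5.01 to 10.73 with DMSO. Serine and one-carbon genes ran from 6.27 to 9.71 with bezafibrate and from 6.23 to 9.84 with DMSO. No difference between branches was tested, since genes are not replicates.

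**Figure D1:**
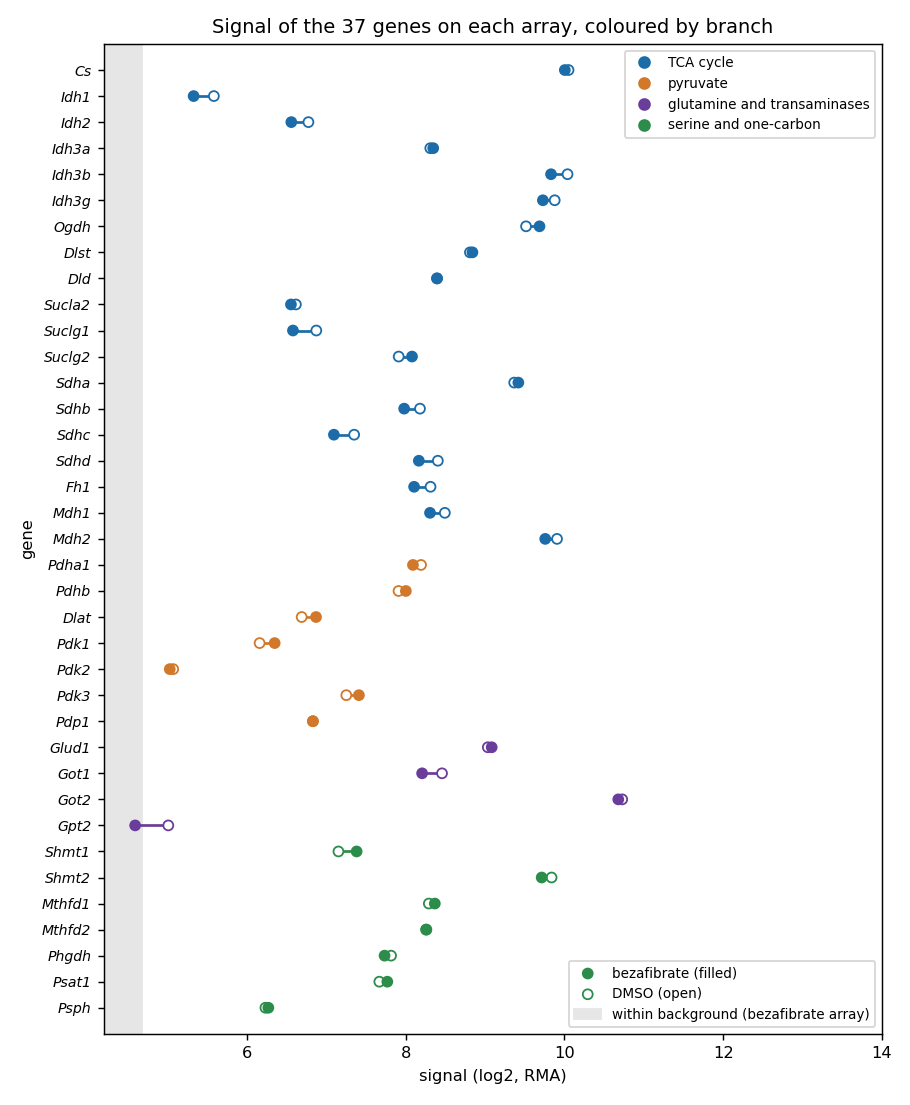
Signal (log2, RMA) of each of the 37 genes on the bezafibrate array (filled) and the DMSO array (open), coloured by branch; the grey band is the background of the bezafibrate array. Gpt2 alone enters the background, at 4.59 with bezafibrate against 5.01 with DMSO.

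**Figure D2:**
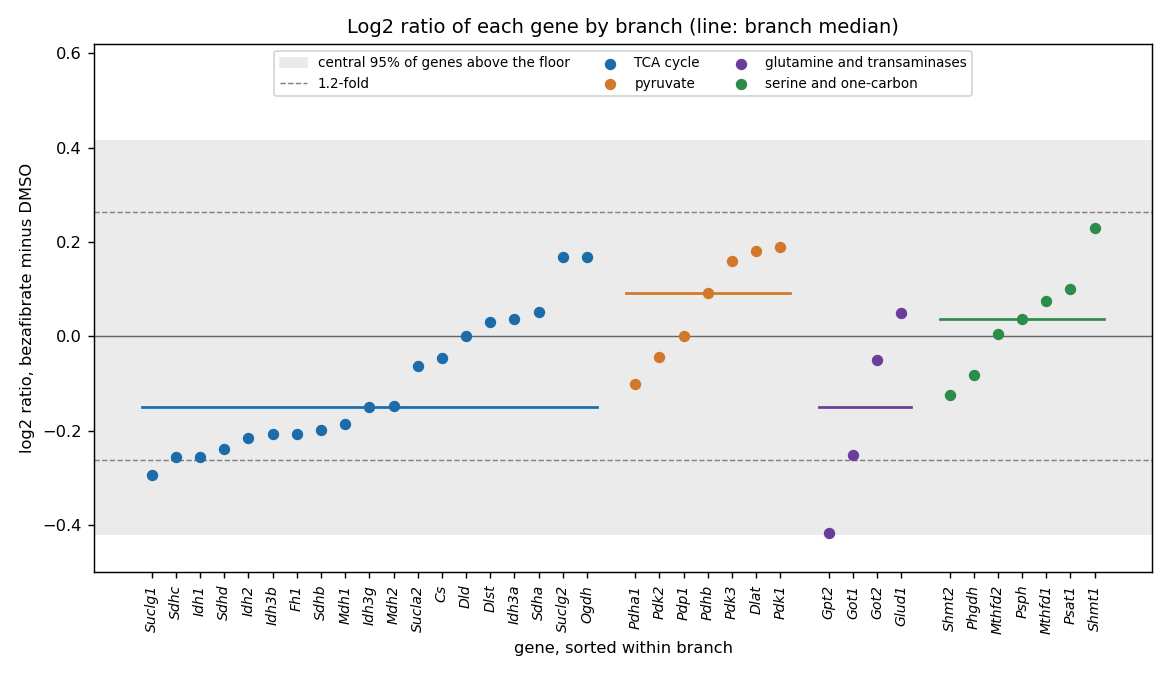
Log2 ratio of bezafibrate minus DMSO for each gene, sorted within its branch, with the branch median as a line, the central 95% of all genes above the floor in grey and the 1.2-fold limit dashed. The TCA cycle median is −0.15 and the pyruvate median 0.09, and Gpt2 and Suclg1 lie below the lower dashed line.

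In succinate dehydrogenase, which is also complex II of the respiratory chain, 3 of 4 subunit genes were lower. Sdhb (probe set 17420897), its iron-sulphur subunit, had a signal of 7.98 with bezafibrate and 8.18 with DMSO, a log2 ratio of −0.20. Sdhc (probe set 17229629), a membrane anchor that helps bind ubiquinone, had 7.10 with bezafibrate and 7.35 with DMSO, a ratio of −0.25. Sdhd (probe set 17526843), the other membrane anchor, had 8.17 with bezafibrate and 8.41 with DMSO, a ratio of −0.24. All 3 were thus lower by a like amount. Sdha, the flavin-bearing catalytic subunit, had 9.42 with bezafibrate and 9.37 with DMSO, a ratio of 0.05. Among genes within 0.5 log2 units of the same mean signal, ratios at least as far from 0 were held by 30.0% for Sdhb, 19.8% for Sdhc and 20.5% for Sdhd, so each alone was an ordinary difference on these arrays.

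The start regions of the subunit genes are shown because these genes make up a single complex and differ in ratio. RefSeq gave a window of 250 bases before to 50 after the start for 34 of the 37 genes, in 43 windows (build GRCm38.p6), Sdhc not among them. The last 120 bases before the start are printed for Sdha (chr13:74350241-74350360, minus strand), Sdhb (chr4:140961151-140961270, plus strand) and Sdhd (chr9:50603850-50603969, minus strand), with those of Idh3g (chrX:73786898-73787017, minus strand) and Got1 (chr19:43524606-43524725, minus strand), whose values are given with their enzymes. Idh3g and Got1 are not part of succinate dehydrogenase. They were picked without a stated rule, and both stretches hold a match. Capitals mark matches to any of the 5 motifs searched.
Sdha: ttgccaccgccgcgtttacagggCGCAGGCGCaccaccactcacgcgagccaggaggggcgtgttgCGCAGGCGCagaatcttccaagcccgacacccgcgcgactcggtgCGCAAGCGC
Sdhb: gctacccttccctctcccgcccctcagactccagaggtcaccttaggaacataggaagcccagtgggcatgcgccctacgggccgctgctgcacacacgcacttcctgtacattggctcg
Sdhd: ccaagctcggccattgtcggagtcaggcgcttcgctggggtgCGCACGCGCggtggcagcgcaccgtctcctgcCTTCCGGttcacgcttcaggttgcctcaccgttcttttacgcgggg
Idh3g: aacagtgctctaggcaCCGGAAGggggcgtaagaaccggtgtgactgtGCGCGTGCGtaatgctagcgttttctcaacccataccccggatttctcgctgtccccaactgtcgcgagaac
Got1: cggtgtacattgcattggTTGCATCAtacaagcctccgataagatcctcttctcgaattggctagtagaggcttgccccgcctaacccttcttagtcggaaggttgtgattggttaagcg
The motifs, chosen after the ratios were known, were searched on both strands. All windows include those of genes below the floor, whereas all 37 genes lay above it. The shares were not compared with windows of genes above the floor alone. The ETS core CCGGAAG was in 8 of the 43 windows (18.6%), against 8.86% of all 32851 windows. GCGCNTGCG, a core of the site of nuclear respiratory factor 1, was in 10 (23.3%), against 6.31%. TGATGNAA, a core of the ATF4 site, was in 1 (2.33%), against 3.97%. TNAAGGTCA, the oestrogen-related receptor half-site, was in 1, against 1.28%. The direct repeat that PPARs bind, searched as 2 copies of AGGTCA with 1 base between them, was in 0, against 0.0396%, and it shares AGGTCA with the previous motif. Sdha, with its ratio near 0, had 3 matches to GCGCNTGCG in the stretch shown. Sdhd, which was lower, had 1 such match and 1 to CCGGAAG, and a match to TNAAGGTCA 37 bases after the start. Sdhb had CCGGAAG 7 bases after the start. A match is a run of letters and not a measured binding site.

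Isocitrate dehydrogenase 3, the NAD-dependent enzyme that makes 2-oxoglutarate, showed a like split. Idh3b had 9.83 with bezafibrate and 10.04 with DMSO (ratio −0.21), and Idh3g had 9.73 with bezafibrate and 9.88 with DMSO (ratio −0.15). These genes encode the β and γ subunits. Idh3a, the catalytic α subunit, had 8.35 with bezafibrate and 8.31 with DMSO (ratio 0.04). The matches in the Idh3g stretch were to CCGGAAG, which also spanned the start of Idh3b, and to GCGCNTGCG.

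The oxoglutarate dehydrogenase complex, the next step, was not lower. Ogdh, its first and rate-setting enzyme, had 9.69 with bezafibrate and 9.52 with DMSO, and its ratio of 0.17 was the highest of the TCA cycle branch. Its start regions held GCGCNTGCG as well. Dlst, the succinyl-transferring core, had 8.84 with bezafibrate and 8.81 with DMSO (ratio 0.03). Dld, the lipoamide-reoxidising enzyme shared with pyruvate dehydrogenase, had 8.40 on each array.

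Succinyl-CoA synthetase was divided too, from −0.29 to 0.17. Suclg1 (probe set 17459716), the α subunit common to both forms of the enzyme, had 6.58 with bezafibrate and 6.88 with DMSO, 1.23-fold lower with bezafibrate. It was the lowest ratio of the branch, at −0.29, and 14.6% of 2546 genes of like signal lay at least as far from 0. Suclg2, the β subunit of the GTP-forming enzyme, had 8.08 with bezafibrate and 7.91 with DMSO (ratio 0.17). Its second probe set, within background at 4.31 with bezafibrate and 4.37 with DMSO, had −0.06. Sucla2, the β subunit of the ATP-forming enzyme, had 6.56 with bezafibrate and 6.62 with DMSO (ratio −0.06).

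Of the remaining steps, citrate synthase (Cs), which condenses acetyl-CoA with oxaloacetate, had 10.01 with bezafibrate and 10.05 with DMSO (ratio −0.05). Fh1, the fumarase that hydrates fumarate to malate, had 8.11 with bezafibrate and 8.31 with DMSO (ratio −0.21). Mdh2, the mitochondrial malate dehydrogenase, had 9.76 with bezafibrate and 9.91 with DMSO (ratio −0.15). Mdh1, its cytosolic counterpart in the malate-aspartate shuttle, had 8.31 with bezafibrate and 8.49 with DMSO (ratio −0.19). The steps from succinate to oxaloacetate thus read lower at every gene but Sdha. The NADP-dependent isocitrate dehydrogenases were lower too. Idh1, the cytosolic form, had 5.33 with bezafibrate and 5.59 with DMSO (ratio −0.25), and Idh2, the mitochondrial form, had 6.56 with bezafibrate and 6.78 with DMSO (ratio −0.22).

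In the pyruvate branch no gene reached 1.2-fold. Dlat, the acetyl-transferring core of pyruvate dehydrogenase, had 6.87 with bezafibrate and 6.69 with DMSO (ratio 0.18). Pdhb, the β subunit of its first enzyme, had 8.003 with bezafibrate and 7.91 with DMSO (ratio 0.09), and Pdha1, the α subunit that the kinases phosphorylate, had 8.09 with bezafibrate and 8.19 with DMSO (ratio −0.10). Of the kinases that switch the complex off, Pdk1 had 6.35 with bezafibrate and 6.16 with DMSO (ratio 0.19), and Pdk3 had 7.41 with bezafibrate and 7.25 with DMSO (ratio 0.16). Pdk2 had 5.03 with bezafibrate and 5.07 with DMSO (ratio −0.04). The direction of Pdk1 rests on its brighter probe set, since the second, within background at 2.11 with bezafibrate and 2.40 with DMSO, had −0.29. Pdp1, a phosphatase that switches the complex on, held exactly 6.83 on each array. Such exact equality occurred on 5.63% of all probe sets with values, and for 223 of the 11446 genes above the floor. Dlat and Pdhb thus lay on the same side as the inhibiting kinases Pdk1 and Pdk3.

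In the glutamine and transaminase branch the ratio of Gpt2 has only a bound. Gpt2 (probe set 17503446), the mitochondrial alanine transaminase that joins pyruvate and glutamate to alanine and 2-oxoglutarate, had 4.59 with bezafibrate and 5.01 with DMSO (ratio −0.42). The bezafibrate signal was below the floor and within background, so Gpt2 passed the floor through the DMSO array alone. Against the background limit of the bezafibrate array, the DMSO signal was at least 1.26-fold higher. Got1, the cytosolic aspartate transaminase, had 8.21 with bezafibrate and 8.46 with DMSO (ratio −0.25), and its start region held TTGCATCA, a match to the ATF4 core on the other strand. Got2, the mitochondrial form, had 10.68 with bezafibrate and 10.73 with DMSO (ratio −0.05), and a second probe set had 6.30 with bezafibrate and 6.23 with DMSO (ratio 0.07). Glud1, glutamate dehydrogenase, which releases ammonia from glutamate, had 9.08 with bezafibrate and 9.04 with DMSO (ratio 0.05). The branch median rests on few genes, and without Gpt2 it was −0.05.

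Serine synthesis from glycolytic 3-phosphoglycerate differed little. Phgdh, its first enzyme, had 7.73 with bezafibrate and 7.82 with DMSO (ratio −0.08). Psat1, the transaminase of the middle step, had 7.77 with bezafibrate and 7.67 with DMSO (ratio 0.10), and Psph, the final phosphatase, had 6.27 with bezafibrate and 6.23 with DMSO (ratio 0.04). The folate enzymes split at the serine step. Shmt1, the cytosolic serine hydroxymethyltransferase, had 7.38 with bezafibrate and 7.15 with DMSO, and its ratio of 0.23 was the highest of the 37 genes. Shmt2, the mitochondrial form, had 9.71 with bezafibrate and 9.84 with DMSO (ratio −0.12). Mthfd1, the cytosolic trifunctional folate enzyme, had 8.37 with bezafibrate and 8.29 with DMSO (ratio 0.08). Mthfd2, its mitochondrial counterpart, which proliferating cells express strongly, had 8.26 on each array.

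The set holds 5 pairs of cytosolic and mitochondrial isozymes. The cytosolic ratio minus the mitochondrial ratio was −0.04 for Idh1 and Idh2 and −0.04 for Mdh1 and Mdh2, so the forms of these enzymes read alike. It was −0.20 for Got1 and Got2, 0.35 for Shmt1 and Shmt2 and 0.07 for Mthfd1 and Mthfd2. No common direction by compartment was seen. For scale, the ratios of 2 probe sets of the same gene, both above the floor, differed by a median of 0.20 over 441 genes, and by up to 0.47 in 90% of them. The Shmt1 and Shmt2 gap lay inside that range. The 2 probe sets gave ratios of the same sign in 54.0% of these 441 genes. The direction of a gene read by a single probe set, and a split between subunits, is therefore uncertain here.

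**Figure D3:**
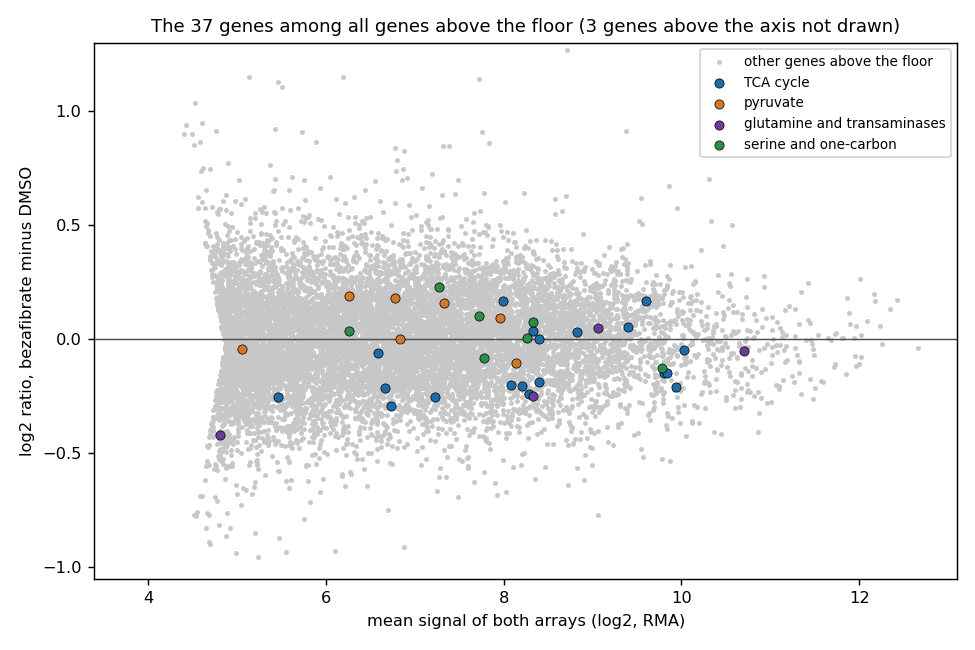
Log2 ratio (bezafibrate minus DMSO) against the mean signal of both arrays (log2, RMA), with the 37 genes coloured by branch over all other genes above the floor in grey. The 37 genes lie between −0.42 and 0.23, inside the cloud of other genes at each signal.

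Ratios also varied with gene length on these arrays. Among genes above the floor with a RefSeq length, length and ratio had a Spearman's rho of 0.28 (n = 11430 genes of the same 2 arrays), and among the 37 genes of 0.27. Of the short genes, Idh3b (5143 bp), Shmt2 (5322 bp), Sdhd (7510 bp) and Idh3g (7935 bp) were lower, whereas Pdhb (7313 bp) was higher and Pdp1 (8268 bp) was equal. The long genes Suclg2 (245850 bp), Pdk3 (67535 bp), Ogdh (67498 bp) and Mthfd1 (65415 bp) were higher. With the median of genes of like signal and length subtracted, Idh3g was at −0.03, Shmt2 at 0.00, Idh3b at −0.09 and Mthfd1 at −0.01, and Ogdh was at 0.06, Suclg2 at 0.06, Pdk3 at 0.07 and Pdhb at 0.20. Idh3a, at 0.07, then had the highest value of the TCA cycle branch in place of Ogdh. The same subtraction left Suclg1 at −0.30, Sdhc at −0.26, Got1 at −0.25, Idh2 at −0.22, Idh1 at −0.22, Fh1 at −0.20 and Sdhb at −0.16, with Sdha at 0.02 and Sdhd at −0.12. The TCA cycle branch then had a median of −0.09 with 13 of 19 genes below 0, and the pyruvate branch had 0.10 with 1 of 7 below 0. The glutamine branch had −0.15 with 4 of 4 below 0, and the serine and one-carbon branch had 0.01 with 3 of 7 below 0. Of the 11430 genes above the floor with a length, 5689 were below 0 after the same subtraction. The 4 glutamine genes include Glud1, at 0.05 before and −0.02 after, and Gpt2, which was within background with bezafibrate.

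**Figure D4:**
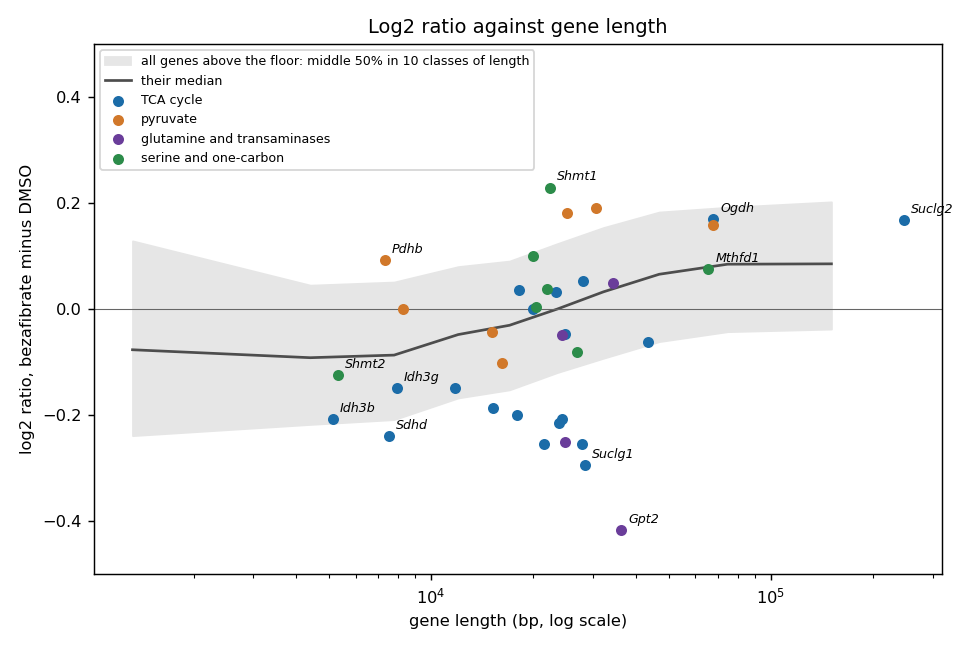
Log2 ratio (bezafibrate minus DMSO) against gene length (bp, log scale) for the 37 genes, coloured by branch; the line is the median and the band the middle 50% of all genes above the floor in 10 classes of length. Idh3b and Sdhd lie among short genes with negative medians, whereas Suclg1 (−0.29) and Gpt2 (−0.42) lie below the band at middle lengths.

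Succinate dehydrogenase belongs to the respiratory chain, so its neighbours there give a scale. Of all genes above the floor 49.6% were lower. Among such genes, 28 of 31 complex I subunits were lower (90.3%), with a median of −0.31. Of the subunits of complexes III, IV and ATP synthase 32 of 35 were lower (91.4%), with a median of −0.17. Of 67 mitochondrial ribosomal proteins 51 were lower (76.1%), with a median of −0.12. The 4 subunits of succinate dehydrogenase had a median of −0.22. At 1.2-fold, 18 complex I subunits (58.1%), 11 subunits of the other complexes (31.4%) and 15 ribosomal proteins (22.4%) were lower. The same limit held 1 of 19 TCA cycle genes (5.26%) and 10.4% of all genes above the floor. These groups hold short genes, with median lengths of 7798 bp for complex I, 6751 bp for the other complexes and 7749 bp for the ribosomal proteins, against 23270 bp for the TCA cycle. With signal and length subtracted, the medians were −0.22 for complex I, −0.12 for the other complexes, −0.07 for the ribosomal proteins and −0.14 for succinate dehydrogenase.

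**Figure D5:**
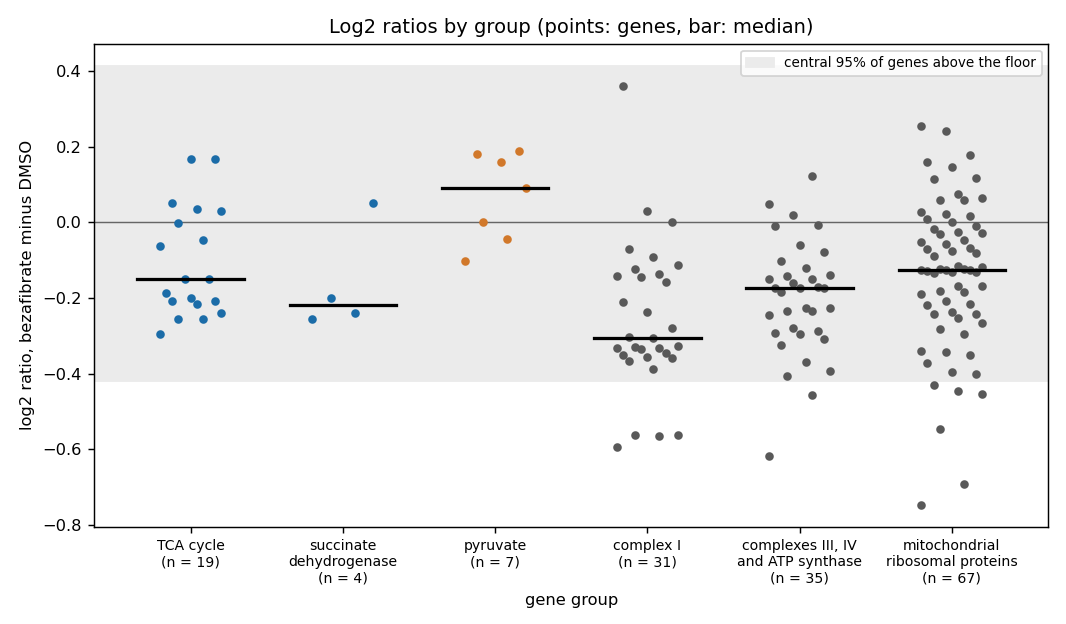
Log2 ratios (bezafibrate minus DMSO) of single genes in each group, with the group median as a bar and the central 95% of all genes above the floor in grey; succinate dehydrogenase genes are also in the TCA cycle column. Complex I has a median of −0.31, the TCA cycle −0.15 and the pyruvate branch 0.09.

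Further genes of the same pathways gave no common direction. Of 57 listed, 47 had a value and 35 lay above the floor, with a median of 0.05. Of the 35, 13 were lower (37.1%, against 49.6% of all genes above the floor), 21 higher (60.0%, against 48.4%) and 1 equal. At 1.2-fold 2 of the 35 were lower (5.71%, against 10.4%) and 3 were higher (8.57%, against 9.58%). Mpc1, a subunit of the mitochondrial pyruvate carrier, had 8.32 with bezafibrate and 8.78 with DMSO (ratio −0.46), and its second probe set had 5.73 with bezafibrate and 5.93 with DMSO (ratio −0.19). Pcx, pyruvate carboxylase, which refills oxaloacetate, had 6.17 with bezafibrate and 6.57 with DMSO (ratio −0.40). Both are entry points of pyruvate. Pdhx, the subunit that anchors Dld in pyruvate dehydrogenase, was at 6.02 with bezafibrate and 5.75 with DMSO (ratio 0.27). With the median of genes of like signal and length subtracted, Pdhx was at 0.19, inside the 1.2-fold limit, and Mpc1 and Pcx were at −0.42 and −0.49. D2hgdh, which oxidises D-2-hydroxyglutarate, had 5.70 with bezafibrate and 5.41 with DMSO (ratio 0.29). Gldc, the glycine-decarboxylating subunit of the glycine cleavage system, had 4.95 with bezafibrate and 4.66 with DMSO (ratio 0.29). It was within background on the DMSO array and passed the floor through the bezafibrate array alone. Pdk4, a pyruvate dehydrogenase kinase induced by PPARs in other tissues, was within background on both arrays, at 3.74 with bezafibrate and 4.14 with DMSO.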

How the data were processed

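Total RNA from 2 cultures, 1 with bezafibrate and 1 with DMSO, was amplified with a whole-transcript kit and hybridised to 1 array each, per the labels' protocols. The deposited values are log2 signals per probe set, made by the authors with RMA and Affymetrix Expression Console, as the submitters' processing notes list without versions. RMA equalises signal distributions between arrays, so ratios are relative to other genes, and it shrinks differences of dim genes. The log2 scale was inferred from the values, which spanned 0.75 to 12.68.

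Of 41801 probe sets 33793 had values, and 23521 of these named 1 gene in the platform annotation. The brightest by the mean of both arrays stood for a gene, as for 1082 of 22180 genes with several. The floor was 4.85 with bezafibrate and 4.88 with DMSO. No probe set naming several genes named any of the 37. Gene lengths came from RefSeq (GRCm38.p6) for 99.8% of genes, a build the sources used here do not tie to the arrays.

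All 37 genes, and other pathway genes at least 1.2-fold apart above the floor, were named by rule. The genes, lists and limits were chosen with earlier results of these data known. No test was possible with 1 array per group, and the number of arrays limits the precision. Alternatives were other probe set rules, quantile normalization, loess on level, level and length classes (10 by 10), other members and other limits. Python 3.11.15, numpy 2.4.6, pandas 2.3.3, scipy 1.17.1, statsmodels 0.14.6 and matplotlib 3.10.9 were used, and the calculations were tested on simulated data.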

Additional observations from a re-analysis of the deposited data

How the results depend on the processing

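With 1 array per group no array could be left out. No paired analysis was possible because each group holds 1 array. Over 5 alternatives of scaling and probe set choice, 28 of the 37 genes kept their sign. By branch these were 17 of 19 in the TCA cycle and 4 of 7 in the pyruvate branch. They were also 2 of 4 in the glutamine branch and 5 of 7 in the serine and one-carbon branch. The probe set rules could change only Got2, Pdk1 and Suclg2, the genes with a second probe set. Pdp1, with a ratio of 0, had no sign to keep and was counted as not keeping one. The pyruvate median of 0.09 became 0 with the mean of all probe sets, through the dim second probe set of Pdk1, whose ratio became −0.05. The TCA cycle median of −0.15 became −0.086 with signal and gene length subtracted. The number of genes at least 1.2-fold lower, 2 as reported, was 4 after quantile normalization and 4 after the loess curve was subtracted. At limits of 1.3-fold and 1.5-fold it was 1 and 0, the 1 being Gpt2, which was within background with bezafibrate. No gene was at least 1.2-fold higher under these alternatives. The ratio of Suclg2 was −0.06 with the probe set nearest 0. Using only genes above the floor or above background, or adding probe sets of several genes, could change no median or count, since all 37 genes passed both limits and none is named by such a probe set. Of the other 59 combinations of summary and alternative, 53 kept medians within the robust SD of single-gene ratios above the floor (0.21) over the square root of the number of genes, and counts within 1.5 times. Some of the 59 could not differ either. The probe set rules, for example, could not move the serine and one-carbon median, since no gene of that branch has a second probe set. The limit for medians is a convention and no test, since genes are not replicates, and it is wide for small branches. Without Gpt2 the glutamine median went from −0.15 to −0.05 and was still counted as kept. The 53 is thus no measure of stability.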

Other observations

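Among 10 regulators of these pathways, Ppard was past 1.2-fold lower and Nrf1 past 1.2-fold higher above the floor, beside 10.4% and 9.58% of all genes. With the median of genes of like signal and length subtracted, Nrf1 was at 0.20, inside the limit, and Ppard at −0.64, still past it. Ppard, the PPAR read above background here, had 6.86 with bezafibrate and 7.38 with DMSO (ratio −0.53). Ppara and Pparg were within background on both arrays. Nrf1, nuclear respiratory factor 1, which drives many mitochondrial genes, had 7.15 with bezafibrate and 6.86 with DMSO (ratio 0.30), and Esrra, the oestrogen-related receptor α, had 6.69 with bezafibrate and 6.86 with DMSO (ratio −0.17).

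Atf4, the factor that induces serine synthesis and folate genes when amino acids are short, had 8.58 with bezafibrate and 8.66 with DMSO (ratio −0.08). Ddit3 and Atf5, which belong to the same response, had ratios of −0.13 and −0.09. Myc, which promotes glutamine use in activated T cells, had 9.12 with bezafibrate and 9.26 with DMSO (ratio −0.14). Hif1a, which induces Pdk1 in low oxygen, had 8.29 with bezafibrate and 8.10 with DMSO (ratio 0.19), and a second probe set, within background, had −0.16. With signal and length subtracted, Hif1a was at 0.11, Atf4 at 0.05, Atf5 at −0.01, Ddit3 at −0.04, Myc at −0.02 and Esrra at −0.07.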
